A study of Mus musculus with 1087 samples.

Results

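Cluster 7 of class HC1 is a set of single hematopoietic cells from the mouse aorta-gonad-mesonephros (AGM) region that also carry RNA of endothelial genes. Its members are the cells whose labels give the class HC1 and cluster 7 when the authors clustered the series with the CD27+ cells left out. They make up 19.04% of the 1087 sequenced cells. They were compared with the HC1 cells that the same clustering put in cluster 8. Each sample of the series is 1 cell from a Gata2V/+ embryo, which carries a Venus fluorescent reporter at 1 Gata2 allele and comes from C57BL/6HsdJOla mothers and Gata2V/V fathers. The reporter genotype is thus the same in every group, and no group without the reporter was analysed here. Tissue was dissociated with collagenase, stained for CD31, cKit and CD27, cleared of dead cells with Hoechst and sorted, and the titles call every cell KitHi.

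The cells of cluster 7 come from 4 groups of day and gate, which are given below in this order: E10 G2VInt (intermediate Venus, 27 cells), E11 G2VInt (46), E11.5 G2VInt (63) and E11.5 G2VLo (low Venus, 71). Cluster 8 has 36, 31, 39 and 92 cells in the same groups. The labels name no embryo, so a group is 1 sample, its cells are not replicates, and no test was run. The library numbers in the titles run in a separate block for each of these 4 groups, so a difference between days or gates and one between library blocks cannot be told apart. Cells of clusters 7 and 8 share each block.

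Hematopoietic stem cells arise in the embryo from hemogenic endothelium, flat cells in the wall of the aorta that round up, switch on blood genes and switch off vessel genes. They collect in clusters that bud into the lumen, called intra-aortic hematopoietic clusters. Arterial identity depends on Notch signaling, while the step to blood depends on Runx1, Gata2 and the repressors Gfi1 and Gfi1b. A cell in mid-transition would hold RNA of both programs.

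Each cell had between 117369 and 4517770 reads on genes in cluster 7. The median in cluster 7 was 2191360, 2426000, 1643760 and 418321 reads (to 6 digits), against 1949030, 2498040, 1446320 and 466202 in cluster 8. At 100000 reads drawn from each cell, cells had reads of a median of 8066, 7935.5, 7857 and 6706 genes in cluster 7. This number was higher in cluster 8 in every group, at 8342.5, 8120, 8118 and 7013.5, and higher again in endothelial (EC) cluster 2 at E11.5, at 8808.5 in G2VInt (54 cells) and 7907.5 in G2VLo. The part of these gene numbers in the results was not tested, and no doublet caller was run.

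Both programs of the label were present by their markers. Summed over 26 pan-endothelial genes, levels lay between 5393 and 8280.8 CPM (reads per 1000000 reads of the summed cells) in the 4 groups of cluster 7. They lay between 2263 and 4258 in cluster 8 and between 13340 and 16335 in EC cluster 2. Over 22 pan-hematopoietic genes the order was turned around, with 3112 to 4641 CPM in cluster 7, 5250 to 6482 in cluster 8 and 470.6 to 614 in EC cluster 2. Markers of mesenchyme summed to 13.8 to 41.7 CPM and those of germ cells to 1.46 to 7.27 CPM in cluster 7. Other lists were not near 0. Smooth muscle genes summed to 1283 to 1657 CPM in cluster 7 against 557.1 to 837.7 in cluster 8, although Myh11, a heavy chain of contractile myosin, and Des, an intermediate filament, were at or under 1.08 CPM in cluster 7. Macrophage genes summed to 285.1 to 545.5 CPM against 234.9 to 364.5, and most of that was Lyz2, the lysozyme gene. Erythroid genes summed to 198.2 to 509.8 CPM against 238.4 to 614.6, and epithelial genes to 157.9 to 238.2 against 79.1 to 171.1. The part of these lists in the results was not tested.

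**Figure D1:**
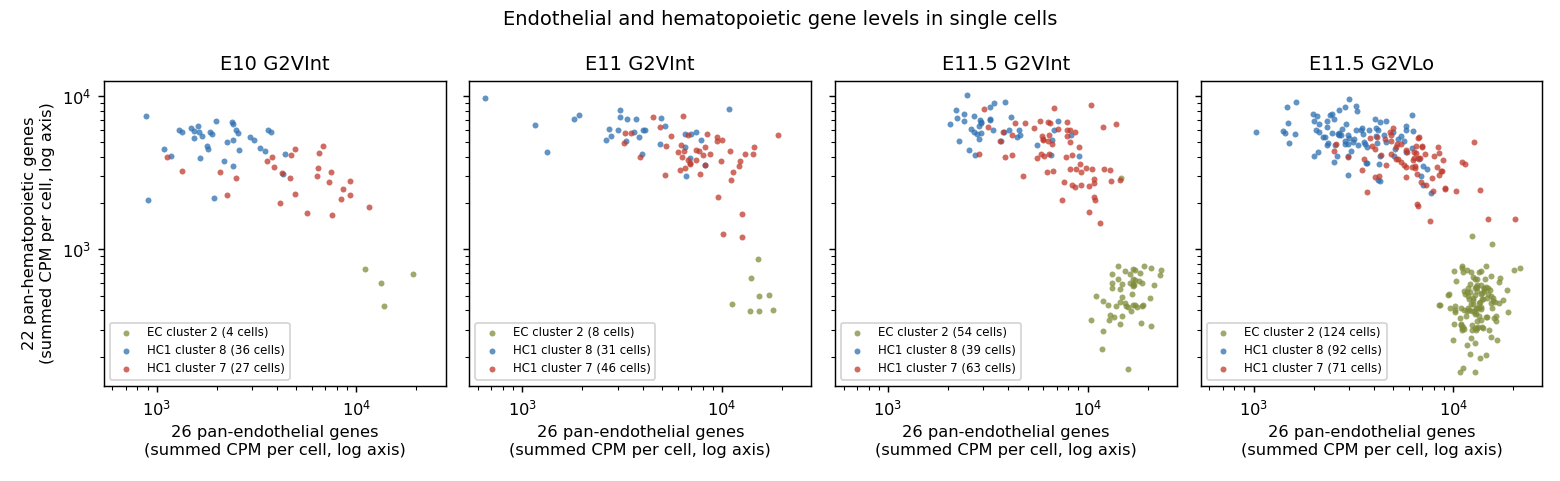
Each point is 1 cell, placed by its summed CPM over 26 pan-endothelial genes (horizontal, log axis) and over 22 pan-hematopoietic genes (vertical, log axis), with 1 panel per day and gate and colors for HC1 cluster 7, HC1 cluster 8 and EC cluster 2. Cells of cluster 7 lie to the right of and below most cells of cluster 8, overlap with them, and lie well above the EC cells in hematopoietic genes.

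Both programs were present in the same cells and not only in the sum. The median cell of cluster 7 held 6675 CPM of pan-endothelial genes, between 1121 and 20486 over all cells, and 3951 CPM of pan-hematopoietic genes, between 1206 and 8766. Cdh5, the cadherin of endothelial junctions, and Ptprc, which encodes the leukocyte protein CD45, were both read in 62.8% of the thinned cells (95% Clopper-Pearson interval 55.8 to 69.4). In cluster 8 both were read in 69.2% (62.3 to 75.5) and in EC cluster 2 in 3.68% (1.49 to 7.44). The share in cluster 7 was lowest at E10, at 37.04% (19.4 to 57.6) against 61.1% (43.5 to 76.9) in cluster 8, and lay between 65.2% and 67.6% in the other 3 groups. The intervals of clusters 7 and 8 overlap in all 4 groups. Across cells of 1 group of cluster 7 the 2 sums ran against each other, with Spearman coefficients of -0.37 over 27 cells, -0.36 over 46, -0.46 over 63 and -0.42 over 71. Both sums are parts of the same total, so part of such a relation is built in.

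The 7 marker genes of the cluster were higher in cluster 7 than in cluster 8 in all 4 groups, and 5 of them at least 2-fold. These genes were named with results of these data known, and the clustering used the same cells, so their levels describe the cluster and test nothing. Of all 9916 genes measured, 1.42% were at least 2-fold higher in every group and 15.4% were above 1 in every group. A gene counted as measured with a mean of at least 10 CPM over the 4 groups in either cluster, if at least 10% of the thinned cells there had a read. A gene low in 1 cluster can thus pass through the other alone, which favors the direction of that other cluster in the lists below. Intervals below are 95% intervals of counting error only, and copies made by PCR make them too narrow.

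Akr1c14, an aldo-keto reductase that acts on steroids (chr13:4049011-4090688, + strand, GRCm38), was at 3.99, 85.4, 58.5 and 28.01 CPM in cluster 7. In cluster 8 it was at 0.0271, 2.94, 1.00 and 3.05 CPM. Every summed level of cluster 7 lies above every one of cluster 8, and the ratio was smallest in E11.5 G2VLo, at 9.17-fold (7.64 to 11.1). The share of all measured genes with levels set apart in this way is not given here. At E10 cluster 8 held only 2 reads of it, so the ratio of 147.1 carries an interval from 40.3 to 1222. It was read in 35.3% of the thinned cells of cluster 7 (95% interval 28.8 to 42.2) and in 7.58% of cluster 8.

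Ret, the receptor tyrosine kinase for ligands of the GDNF family (chr6:118151745-118197718, - strand), was at 5.43, 47.6, 59.1 and 25.9 CPM against 0.0407, 1.02, 4.76 and 11.0. Cluster 7 was higher in each group, but its E10 level lay under the E11.5 G2VLo level of cluster 8. The ratio narrowed from 46.6-fold (37.7 to 58.3) in E11 G2VInt to 2.35-fold (2.10 to 2.63) in E11.5 G2VLo. None of its 4 coreceptor genes and none of its ligand genes Gdnf, Nrtn, Artn and Pspn passed as measured.

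Acta2, the smooth muscle form of actin (chr19:34241090-34255590, - strand), was at 162.1, 373.2, 422.7 and 370.2 CPM in cluster 7 and at 32.4, 81.9, 10.9 and 87.05 CPM in cluster 8. All 4 levels of cluster 7 lie above all 4 of cluster 8. Sult1a1, a sulfotransferase for phenols (chr7:126672865-126676432, - strand), was at 7.54, 73.5, 57.4 and 47.3 CPM against 2.03, 7.80, 3.78 and 3.94. Its E10 level in cluster 7 is close to the E11 level in cluster 8. Acta2 was read in 60.9% of the cells of cluster 7 and 31.3% of cluster 8, and Sult1a1 in 48.8% and 13.1%.

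Bmx, a Tec family kinase of arterial endothelium (chrX:164192842-164258193, - strand), was at 4.52, 51.4, 53.5 and 33.9 CPM against 1.67, 12.9, 11.46 and 13.2. It was 2.56-fold (2.31 to 2.84) to 4.67-fold (4.32 to 5.04) higher inside each group, and lowest in both clusters at E10. Rprm, a mediator of cell cycle arrest in G2 (chr2:54084093-54085552, - strand), was at 17.7, 64.03, 56.6 and 13.9 CPM against 2.41, 5.70, 6.52 and 7.84. Its ratio was under 2-fold in E11.5 G2VLo only, at 1.77 (1.54 to 2.05). Procr, the endothelial receptor of protein C and a surface marker of stem cells (chr2:155751117-155755471, + strand), was at 125.03, 457.4, 531 and 454.3 CPM against 30.9, 250.3, 133.9 and 172.9. The E11 ratio of Procr was 1.83 (1.80 to 1.86), under the 2-fold limit.

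**Figure D2:**
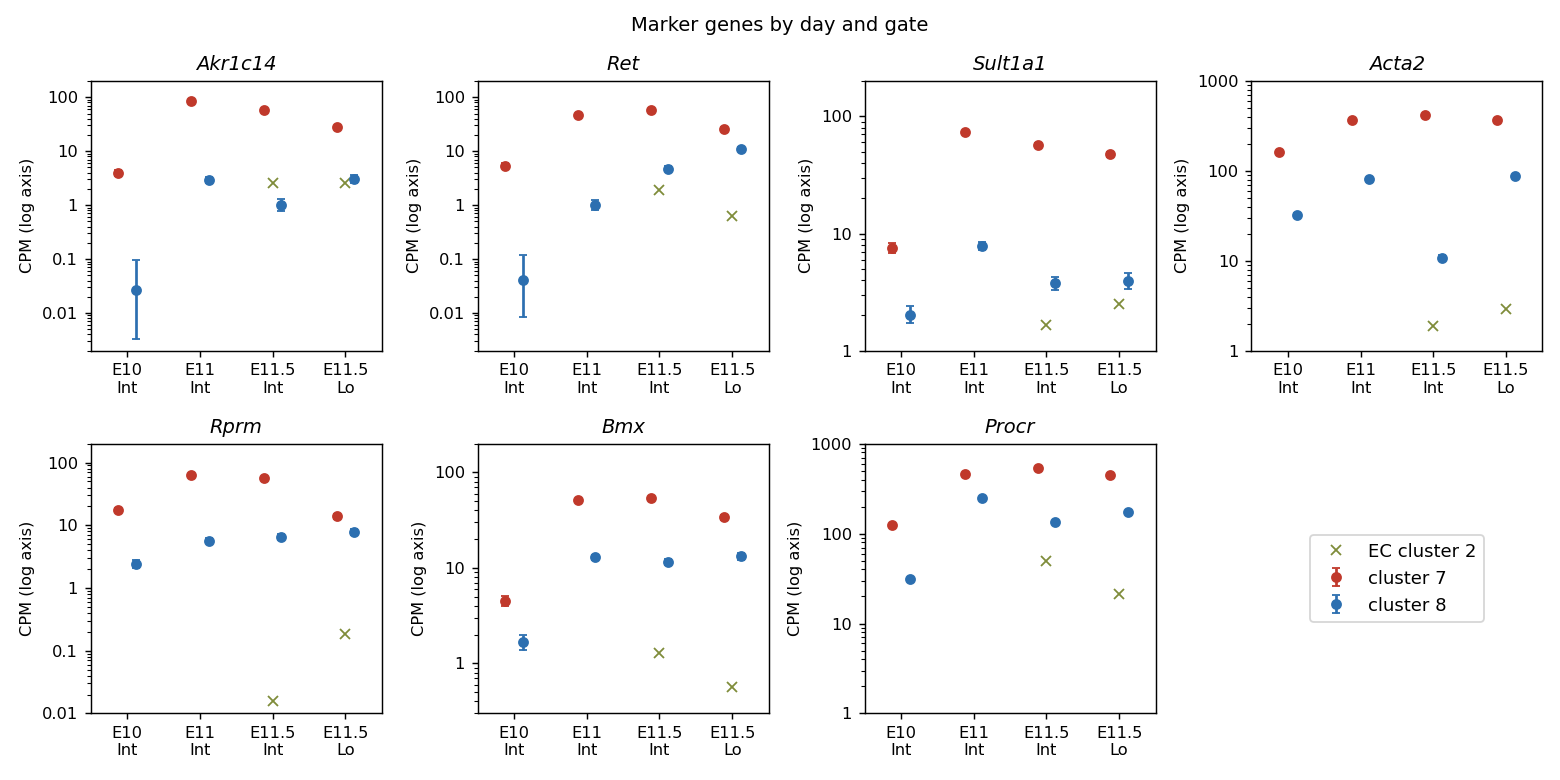
Levels of the 7 marker genes in CPM (log axis) by day and gate, with exact Poisson 95% intervals for HC1 cluster 7 and HC1 cluster 8, mostly narrower than the symbols, and crosses without intervals for EC cluster 2 in the E11.5 groups. Cluster 7 is the highest of the sets shown in every group, and 6 of the 7 genes are lowest at E10 within cluster 7.

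Markers met in single cells of cluster 7 in varying numbers. A cell of cluster 7 had reads of a median of 3 of the 7 markers, against 1 in cluster 8 and 1 in EC cluster 2. At least 4 were read in 49.8% of its cells (95% interval 42.8 to 56.8), against 4.04% of cluster 8 (1.76 to 7.80) and 0 of 190 cells of EC cluster 2, which allows a share of up to 1.92% (exact interval). The share within cluster 7 was 18.5% at E10, 76.1% at E11, 61.9% in E11.5 G2VInt and 33.8% in E11.5 G2VLo. No marker was read in 4 cells of cluster 7, all from E10.

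Among the proteins of the sort, Pecam1, which encodes CD31, was at 432.2, 621, 541 and 489 CPM in cluster 7 against 186.2, 286.3, 243.3 and 211.5 in cluster 8. The ratio stayed between 2.17 and 2.32 in all 4 groups. Gata2, the gene that carries the reporter, was at 192.3, 289.4, 289.6 and 165.6 CPM against 102.3, 123.2, 173.7 and 95.8, which is 1.67-fold to 2.35-fold higher at matched gate. Kit was at 659, 788, 689.8 and 573 CPM against 623, 639, 587 and 542, a ratio of 1.06 to 1.23. Cd27 was lower in cluster 7, at 21.7, 66.3, 76.2 and 41.7 CPM against 55.9, 122.6, 160.3 and 111.9.

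Most endothelial genes were higher in cluster 7. Of the 26 pan-endothelial genes all were measured, 23 were higher in cluster 7 in every group and 10 at least 2-fold, against 15.4% and 1.42% of all measured genes. Their median log2 ratio was 1.12, 1.10, 1.15 and 0.90 in the 4 groups, where the median of all measured genes was -0.01, -0.01, -0.02 and -0.00. Sox7, a transcription factor of early endothelium, was at 62.3, 142.7, 97.6 and 117.8 CPM against 5.81, 37.7, 18.8 and 10.3. Cldn5, the claudin of endothelial tight junctions, was at 203.2, 350.3, 487 and 415.8 CPM against 13.4, 73.2, 106.7 and 60.4. For both genes every level of cluster 7 exceeds every level of cluster 8.

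Nos3, the endothelial nitric oxide synthase, was at 27.1, 37.4, 42.5 and 31.1 CPM against 1.95, 6.47, 5.11 and 12.99, and its ratio was smallest in E11.5 G2VLo (2.40, 2.16 to 2.66). Emcn, a sialomucin of veins and capillaries, was 1 of 3 genes of this list, with Erg and Cd93, that did not keep 1 direction, at 95.7, 106.6, 98.1 and 104.5 CPM against 56.7, 99.02, 124.2 and 113.8. It was higher in cluster 7 at E10 and E11 and lower in both E11.5 groups. Only 2 of 7 venous genes were measured, Emcn and the receptor gene Ephb4, which was 1.5-fold to 2.70-fold higher.

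The arterial list had larger ratios. Of all measured genes, 15.4% were higher in every group and 1.42% at least 2-fold. All 13 of the 20 listed that were measured were higher in cluster 7 in every group, and 8 of them at least 2-fold. Among them Bmx, also a marker of the cluster, and Acvrl1 passed as measured through cluster 7 alone, which favors that direction. Their median log2 ratio was 1.44, 2.19, 1.74 and 2.01. Dll4, the arterial Notch ligand, was at 48.3, 95.9, 74.3 and 85.4 CPM in cluster 7 against 2.39, 22.2, 7.93 and 17.5 in cluster 8. Hey1, a repressor that Notch switches on, was at 51.1, 87.8, 71.9 and 69.2 CPM against 1.41, 10.4, 21.5 and 17.1. For both genes every summed level of cluster 7 exceeds every one of cluster 8, and the factor was largest at E10 (20.2-fold and 36.2-fold). This holds for sums and not for single cells. Dll4 was read in 58.5% of the cells of cluster 7 and 18.2% of cluster 8, and Hey1 in 62.3% and 18.7%.

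The arterial connexin Gja5 was at 50.7, 188.7, 116.2 and 122.2 CPM against 4.99, 41.3, 8.17 and 20.2, and was read in 63.3% of the cells of cluster 7 and 22.2% of cluster 8. Nrp1, a coreceptor of VEGF on arteries, was at 58.4, 257.8, 184.04 and 162.3 CPM against 10.7, 28.2, 17.7 and 22.1. Again the E10 level was the lowest within cluster 7, yet above each level of cluster 8. Sox17, a factor needed for arterial fate, was at 40.3, 82.6, 52.9 and 71.03 CPM against 1.13, 10.3, 18.6 and 18.3. Of 10 measured Notch pathway genes, 8 were higher in every group and 3 at least 2-fold, against 15.4% and 1.42% of all measured genes. The 3 were Hey1, Dll4 and the receptor gene Notch3.

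**Figure D3:**
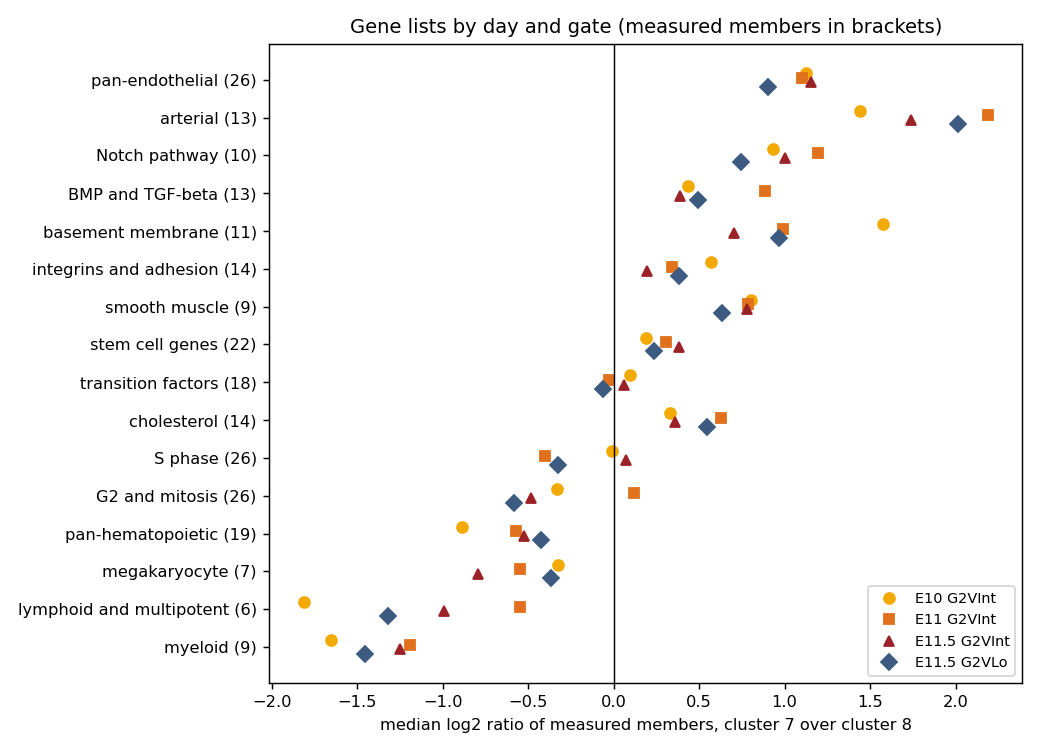
Median log2 ratio of cluster 7 over cluster 8 for 16 gene lists (horizontal), with 1 symbol per day and gate and the number of measured members in brackets. Arterial genes reach 1.44 to 2.19 in all 4 groups and myeloid genes -1.65 to -1.19, while the transition factors sit between -0.06 and 0.10.

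The 15 highest genes include several of the matrix and of actin attachment. By the smallest of its 4 ratios, Fbn1 led, the gene of the microfibril protein fibrillin-1 (chr2:125300594-125507993, - strand). It was at 24.4, 48.6, 28.5 and 21.4 CPM in cluster 7 against 0.109, 0.505, 0.864 and 1.03 CPM in cluster 8. The ratio was 224.98, 96.2, 32.9 and 20.9, and cells with a read made up 37.7% of cluster 7 and 2.53% of cluster 8. Ltbp1, which binds latent TGF-beta to microfibrils, was at 69.7, 145.2, 103.1 and 80.2 CPM against 14.2, 18.8, 17.8 and 14.1. Its ratio kept within 4.92-fold to 7.72-fold.

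Col26a1, a collagen gene, was at 34.7, 20.05, 11.54 and 13.4 CPM against 2.25, 1.73, 0.0910 and 2.35. Parva, an adaptor between integrins and actin, was at 30.9, 10.9, 12.8 and 12.9 CPM against 1.70, 1.29, 2.40 and 2.14. Both were highest at E10 within cluster 7, unlike the 7 markers. Crip2, a LIM protein of vessels, was at 190.4, 122.4, 127.2 and 111.8 CPM against a nearly constant 23.05, 23.4, 22.5 and 22.9.

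Synpo, an actin-binding protein, was at 15.9, 137.8, 74.6 and 35.7 CPM against 2.36, 16.8, 2.64 and 4.74. Edn1, which encodes the vasoconstrictor endothelin-1, was at 5.81, 50.5, 30.2 and 30.8 CPM against 1.17, 0.106, 2.09 and 1.03, and came from few cells. It was read in 20.8% of the cells of cluster 7, and the 5 highest cells held 47.1% of its summed per-cell CPM. Cavin2, a caveolar coat protein, and the death receptor gene Fas had no read in cluster 8 at E10. Against a floor of 3 reads they were at least 45.0-fold and at least 199.6-fold higher there, from 1.83 and 8.12 CPM.

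Others of the 15 highest were Ctsh, a lysosomal protease (2.28 to 5.44 on the log2 scale), Tagln, treated below, and Ifi44. The interferon-induced gene Ifi44 was at 1.20, 30.6, 20.8 and 55.4 CPM against 0, 1.86, 0.728 and 3.05. Its 5 highest cells held 56.4% of its per-cell CPM in cluster 7, and without the highest cell of each cluster and group it was no longer 2-fold higher in all 4 groups. Among 11 basement membrane genes, all measured, 8 were higher in every group and 3 at least 2-fold, namely Hspg2, Lamb1 and Sparc. Of all measured genes, 15.4% and 1.42% were. Hspg2, the heparan sulfate proteoglycan perlecan, was at 76.8, 68.6, 72.3 and 65.3 CPM against 16.01, 23.1, 22.002 and 22.5.

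**Figure D4:**
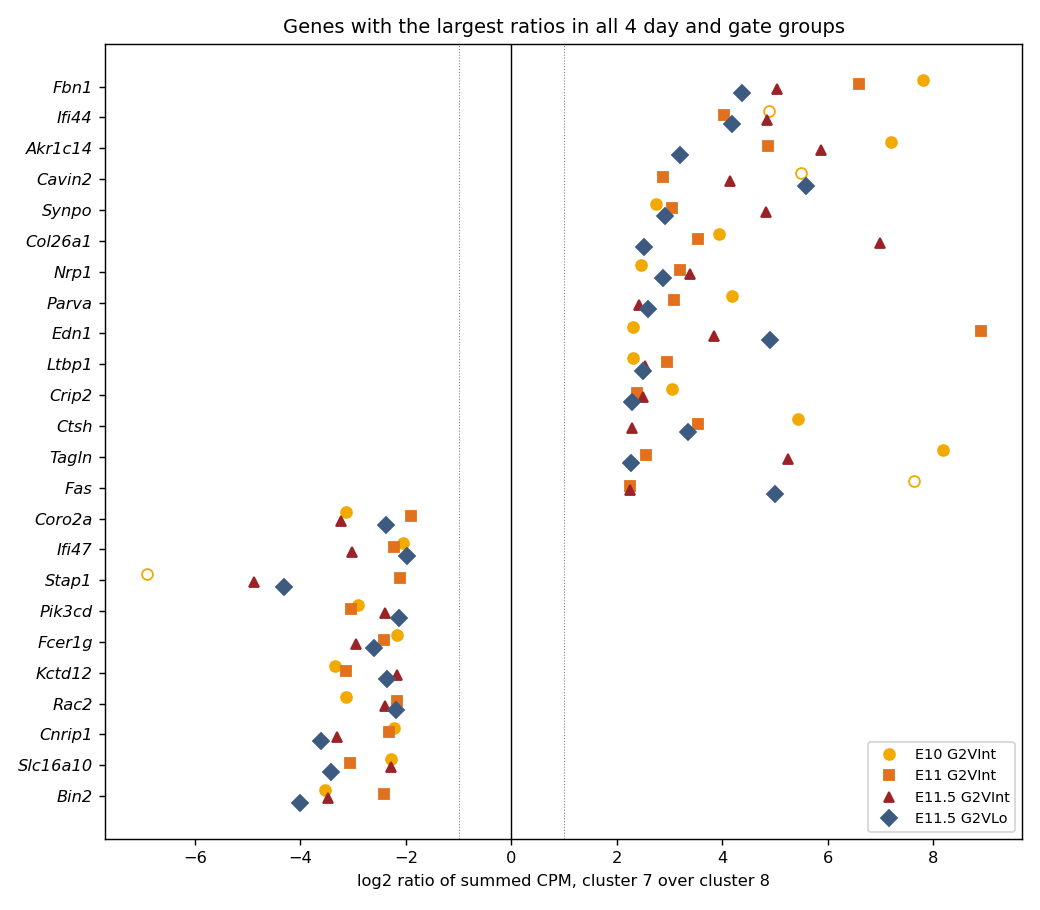
Log2 ratio of summed CPM of cluster 7 over cluster 8 (horizontal) for 14 of the 15 genes with the largest and the 10 with the lowest ratios in all groups, with 1 symbol per day and gate, open symbols where 1 cluster had 0 reads and 3 were put in its place, and dotted lines at 2-fold. Every symbol of the upper 14 genes lies above 2.2 and every symbol of the lower 10 below -1.8.

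Genes of the contractile apparatus split. Of 9 measured smooth muscle genes, 5 were higher in every group and 3 of these at least 2-fold, Acta2, Tagln and Myl9. Of all measured genes, 15.4% and 1.42% were. Tpm2, a tropomyosin, was lower in every group, and Cald1, Smtn and Mylk did not keep 1 direction. Tagln, which encodes the actin-binding protein transgelin, was at 27.6, 14.1, 18.4 and 14.6 CPM against 0.0950, 2.42, 0.485 and 3.03, with reads in 24.6% and 7.07% of cells. Myl9, a regulatory light chain of myosin, was at 103.2, 97.2, 167.4 and 180.004 CPM against 5.78, 32.7, 12.6 and 19.97. Myl9 was also above both endothelial clusters at E11.5, where EC cluster 2 held 32.6 and 19.997 CPM. Cald1, another actin regulator of smooth muscle, was at 11.48, 26.4, 23.4 and 20.5 CPM against 15.5, 7.46, 9.17 and 12.1, lower than cluster 8 at E10 and higher afterwards.

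Serum response factor binds the CArG box, a motif in many promoters of this apparatus. A strict CArG box was searched on either strand in the 250 bases before the start site (RefSeq, GRCm38.p6). Among promoters of measured genes 1.05% held it, and among all 27025 promoters 1.41%. It was found in 0 of 36 lower genes and in 3 of the 93 genes higher in cluster 7 that had an entry. Those 3 are printed to show where the motif lies in genes that were higher together, with the box in capitals, and were chosen for the motif after their ratios were known. The windows are chr2:156775214-156775463 (+ strand) for Myl9, chr2:114052876-114053125 (- strand) for Actc1 and chr1:43196762-43197011 (- strand) for Fhl2. The first base of the box lies 47 bases before the start in Actc1 and 96 in Fhl2, and farther upstream in Myl9.
Myl9: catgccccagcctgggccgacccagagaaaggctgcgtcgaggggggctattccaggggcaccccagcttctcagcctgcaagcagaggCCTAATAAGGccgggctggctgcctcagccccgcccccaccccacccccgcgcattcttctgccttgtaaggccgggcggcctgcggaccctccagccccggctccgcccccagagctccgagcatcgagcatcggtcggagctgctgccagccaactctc
Actc1: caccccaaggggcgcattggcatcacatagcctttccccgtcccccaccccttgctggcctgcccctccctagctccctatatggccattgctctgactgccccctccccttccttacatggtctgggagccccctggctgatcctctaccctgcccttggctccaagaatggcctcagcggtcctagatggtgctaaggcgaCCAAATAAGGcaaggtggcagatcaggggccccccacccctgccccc
Fhl2: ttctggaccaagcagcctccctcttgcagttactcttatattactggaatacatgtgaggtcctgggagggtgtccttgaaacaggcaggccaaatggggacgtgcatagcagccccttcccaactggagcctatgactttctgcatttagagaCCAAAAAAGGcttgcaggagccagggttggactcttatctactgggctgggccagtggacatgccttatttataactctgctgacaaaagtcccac
Actc1 encodes the cardiac form of actin and was at 251.7, 138.2, 30.1 and 76.1 CPM in cluster 7 against 3.11, 0.294, 0.895 and 8.80 in cluster 8, with reads in 15.9% and 5.56% of cells. Fhl2, a LIM coregulator of serum response factor, was at 44.8, 23.5, 33.6 and 43.7 CPM against 7.88, 9.87, 6.58 and 20.04. The window of Acta2 held no strict box, but it holds ccctatatgg and ccttgtttgg, which each differ from the strict form at 1 base. Such looser forms were not searched or counted. Of 11 promoters of the smooth muscle list, 2 held a strict box, Myl9 and Cnn2, and Cnn2 was not a called gene. A match of letters is no binding site, and the number of genes is small. For GTGGGAA, the core bound by the Notch effector RBPJ, on either strand, 9 of the 93 promoters held a match (9.68%). Among promoters of measured genes 5.13% did, and among all promoters 5.39%. Fbn1 was among the 9. Of the lower genes 1 of 36 held it, and of the arterial list 1 of 17 (5.88%), close to the share of all promoters.

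In the BMP and TGF-beta family, 13 members were measured. Of these, 7 were higher in every group and 2 at least 2-fold, against 15.4% and 1.42% of all measured genes. Acvrl1, the endothelial receptor ALK1, was at 24.4, 32.8, 37.1 and 26.5 CPM against 2.89, 6.46, 12.2 and 5.13. Id3, an inhibitor of DNA binding that BMP switches on, was at 95.9, 83.9, 109.7 and 114.5 CPM against 16.5, 13.9, 24.3 and 25.7. In both genes each summed level of cluster 7 lies above each one of cluster 8. Single cells are not set apart in this way, since many cells of both clusters had no read. The share of all measured genes with summed levels set apart is not given here.

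Genes of the blood program were lower, though far from absent. Of all measured genes, 0.514% were at least 2-fold lower in every group and 16.4% were below 1 in every group. Of 19 measured pan-hematopoietic genes, 12 were lower in every group and 4 at least 2-fold, and none was higher. Rac2, the blood form of the Rac GTPase, was at 54.7, 115.4, 123.9 and 120.5 CPM in cluster 7 against 483, 521, 651 and 551 in cluster 8. It was read in 58.5% and 92.9% of cells, and in 15.8% of EC cluster 2. Ptprc was at 29.9, 68.8, 91.6 and 101.4 CPM against 80.1, 141.4, 157.5 and 135.9, with the ratio nearest to 1 in E11.5 G2VLo.

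The 10 lowest genes were Bin2, Slc16a10, Cnrip1, Rac2, Kctd12, Fcer1g, Pik3cd, Stap1, Ifi47 and Coro2a. Bin2, a membrane-bending protein of leukocytes, was at 12.1, 45.7, 20.03 and 9.71 CPM against 141.002, 242.7, 221.7 and 155.5. Fcer1g, the signaling chain of Fc receptors, was at 30.7, 8.18, 11.0 and 7.96 CPM against 138.5, 43.7, 84.3 and 48.2. Pik3cd, the leukocyte catalytic subunit of PI3 kinase, was at 8.72, 6.46, 7.43 and 8.40 CPM against 65.2, 53.004, 39.1 and 36.8. Stap1, an adaptor of B cell signaling, had no read at E10 in cluster 7 and was at least 119.8-fold lower there by a floor of 3 reads.

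Of the later blood lineages, the myeloid list was lower. Of 9 measured myeloid genes, 8 were lower in every group and 2 at least 2-fold, against 16.4% and 0.514% of all measured genes. The medians ran from -1.65 to -1.19. Mpo, the myeloperoxidase of granulocytes and their progenitors, was at 108.1, 127.4, 123.6 and 75.8 CPM against 290.01, 330.9, 356.6 and 348.7. Flt3, the cytokine receptor of multipotent and lymphoid progenitors, was at 6.17, 1.93, 15.2 and 20.9 CPM against 60.8, 48.6, 68.7 and 63.9. No level of cluster 7 reaches one of cluster 8 in either gene. The other lineage lists were mixed. Of 7 measured megakaryocyte genes 3 were lower in every group and none higher, and of 6 lymphoid and multipotent genes 4 were lower and none higher. Of 4 erythroid genes, 2 were higher in every group, the embryonic globin gene Hbb-y and the erythropoietin receptor gene Epor, and 2 lower, the adult globin gene Hbb-bt and the carbonic anhydrase gene Car2. Of 3 macrophage genes Lyz2 was higher in every group, while Csf1r and Cd68 did not keep 1 direction.

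The transcription factors of the endothelial-to-hematopoietic step split. All 18 listed were measured. Of these, 6 were higher in every group and 3 lower, against 15.4% and 16.4% of all measured genes. Only 1 passed the 2-fold limit, Gfi1b, which was lower, where 0.514% of all measured genes were. Without the highest cell of each cluster and group Gfi1b was no longer 2-fold lower in all 4 groups. Runx1, the factor that starts the blood program, was at 379.04, 290.7, 258.5 and 200.1 CPM against 318.7, 306.7, 200.3 and 201.9, a log2 ratio between -0.08 and 0.37. Spi1, the myeloid factor PU.1, was at 502, 404.1, 496 and 382.1 CPM against 367.4, 375.3, 447.7 and 362.6.

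The related repressors Gfi1 and Gfi1b went opposite ways. Gfi1 was at 68.3, 98.6, 84.99 and 55.7 CPM in cluster 7 against 14.6, 39.2, 39.2 and 39.9, higher in every group with a ratio that narrowed to 1.40 (1.31 to 1.49) in E11.5 G2VLo. Gfi1b was at 54.2, 50.8, 37.6 and 26.5 CPM against 138.8, 112.9, 101.9 and 112.6, which is 2.22-fold to 4.25-fold lower. Ikzf1, the lymphoid factor Ikaros, and Lmo2, a bridging protein of the stem cell complex, were lower in every group, with log2 ratios of -1.40 to -0.85 and -1.35 to -0.82.

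Stem cell genes went both ways. Of 22 measured, 13 were higher in every group and 3 lower, against 15.4% and 16.4% of all measured genes. At least 2-fold higher were 2 (Cdkn1c and Mllt3), against 1.42% of all measured genes. The group medians were 0.19 to 0.38. Cdkn1c, the cell cycle inhibitor p57 of quiescent stem cells, was at 471.4, 507, 603 and 378.4 CPM against 114.1, 170.8, 125.1 and 174.6, and was no longer 2-fold higher in all 4 groups without the highest cell of each cluster and group. Mllt3, a regulator of stem cell upkeep, was at 55.4, 193.1, 125.6 and 94.1 CPM against 24.96, 90.9, 59.1 and 43.4, with a ratio of 2.12 to 2.22. Mecom, the stem cell factor EVI1, was 1.76-fold to 2.57-fold higher. Hlf, a factor that marks stem cells, was at 51.8, 78.3, 76.4 and 54.01 CPM against 54.4, 100.3, 77.3 and 86.5.

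Cell cycle genes as lists did not pass the limit. None of 26 S phase genes and none of 26 G2 and mitosis genes was 2-fold different in all groups. In every group 8 and 9 of them were lower and none higher, against 16.4% lower and 15.4% higher of all measured genes. Plk1, a kinase of mitosis, was at 257.2, 351.6, 217.7 and 71.7 CPM against 353.2, 329.3, 335.04 and 140.5. In the D cyclin and inhibitor list Cdkn1c was at least 2-fold higher and Ccnd1 lower, the latter at 6.54, 1.02, 8.29 and 14.99 CPM against 22.1, 41.2, 30.1 and 57.8. Of 14 measured genes of cholesterol synthesis and uptake, 12 were higher in every group, against 15.4% of all measured genes. None of the 14 reached 2-fold in every group, and the medians were 0.33 to 0.63.

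Against EC cluster 2, cluster 7 could be compared at E11.5, where both gates hold over 20 cells of each. Of 10276 genes measured there, 10.5% were at least 2-fold higher in cluster 7 in both gates and 9.18% at least 2-fold lower, with medians of 0.16 and 0.20 on the log2 scale. Of the 26 pan-endothelial genes, 9 were at least 2-fold lower and 2 at least 2-fold higher, and 21 lay between EC cluster 2 and cluster 8 in both gates. Over all 10532 genes measured in either comparison 26.8% lay between. Cldn5 was at 2118 and 1578 CPM in EC cluster 2, and Pecam1 at 914 and 807. The same held for 14 of 20 pan-hematopoietic genes.

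Arterial genes were spread differently. Of 14, 8 lay between and 5 were above both other sets, where 17.0% of all genes were above both. Gja5 in cluster 7 exceeded EC cluster 2 (51.3 and 30.5 CPM) 2-fold or more, and Hey1 exceeded it (58.3 and 59.6 CPM) by less. Dll4 at 127.9 and 122.8 CPM, Nrp1 at 288.2 and 315.8 and Sox17 at 309.1 and 275.3 were higher in EC cluster 2. All 6 venous genes measured here were at least 2-fold lower in cluster 7 than in EC cluster 2, and 4 of them lay below both other sets.

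All 7 markers were above cluster 8 and EC cluster 2 in both E11.5 gates. Genes with a symbol were also screened if 20% or more of thinned cluster 7 cells had a read. Of these, 47 were at least 2-fold above cluster 8, EC cluster 1 and EC cluster 2 in both gates. The 47 genes were picked on the values given here, and the number of genes screened is not given. Bmper, a secreted regulator of BMP signaling in vessels, was at 39.7 and 24.1 CPM in cluster 7, and no higher than 2.70 CPM in any of the other 3 sets. F10, coagulation factor X, was at 180.4 and 152.3 CPM against 45.0 and 29.02 in cluster 8. Art4, the Dombrock blood group protein, was at 390.3 and 375.5 CPM against 97.7 and 101.9 in cluster 8, and was read in 97.1% of the cells of cluster 7. In both endothelial clusters F10 did not exceed 3.90 CPM and Art4 did not exceed 17.2 CPM.

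In profile, cluster 7 stood nearer to cluster 8 than to the endothelium. Over the 9916 measured genes, Pearson's r of log2(CPM + 1) was 0.92, 0.92, 0.93 and 0.93 with cluster 8. It was 0.76 and 0.76 with EC cluster 2 and 0.78 and 0.79 with EC cluster 1 at E11.5. These coefficients are across genes, which are not independent replicates. The authors put clusters 7 and 8 in 1 class, HC1, from RNA of these same cells. The genes were also chosen by their levels in these 2 clusters and not in the endothelium. A nearer cluster 8 is thus built in, and the coefficients describe the division and test nothing.

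The authors' second clustering, which includes CD27+ cells, drew the border elsewhere. Of the cells of cluster 7, 73.9% were again in cluster 7, 50 moved to cluster 8 and 4 to other clusters, while 23 cells of cluster 8 moved to cluster 7. The E10 cells were split most, with 11 staying and 16 moving. Inside E11.5 G2VLo, the 49 cells in cluster 7 both times held 86.3 CPM of Rac2 and 229.7 CPM of Nrp1. The 21 cells that moved to cluster 8 held 180.3 and 45.5 CPM, and the 83 cells in cluster 8 both times held 600.1 and 13.8 CPM. Cells that moved lay between the others for both genes. For Gja5 they held 112.8 CPM, close to the 122.4 of the cells that stayed and far from the 15.6 of the cells in cluster 8 both times.

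**Figure D5:**
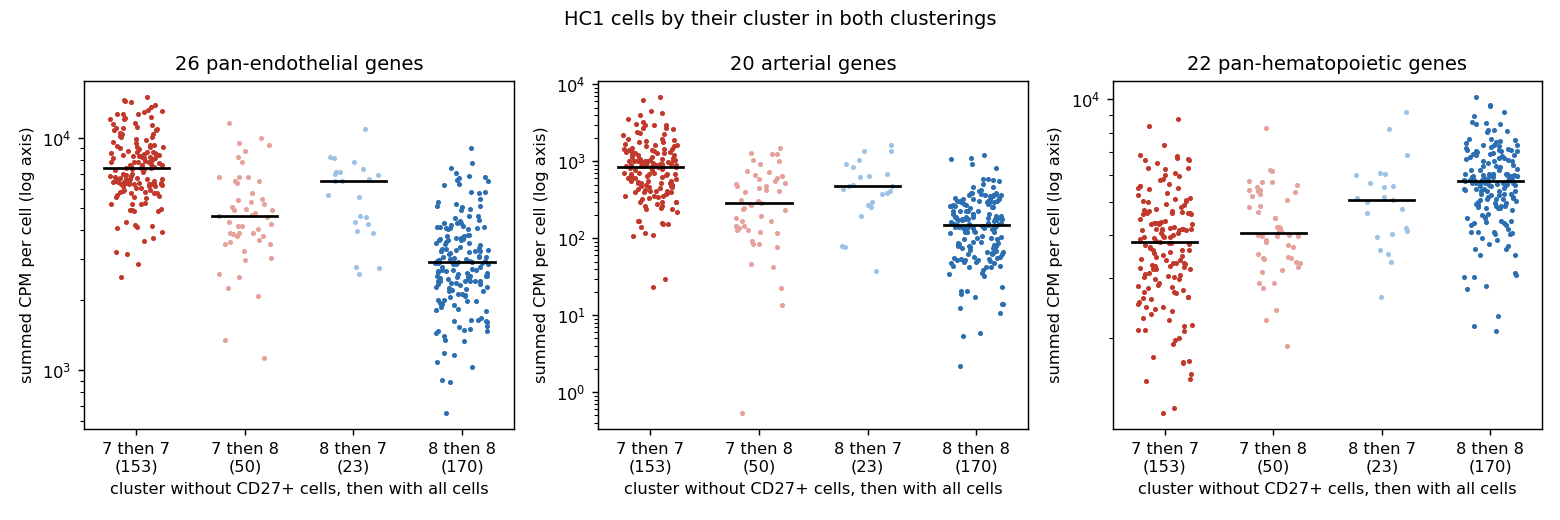
Summed CPM per cell (log axis) of 26 pan-endothelial, 20 arterial and 22 pan-hematopoietic genes in HC1 cells, split by their cluster without and then with CD27+ cells, with cell numbers in brackets and black bars at the medians. Cells in cluster 7 both times have a median of 7416.9 CPM of endothelial genes, and those in cluster 8 both times have 2908. The 50 that moved from cluster 7 to 8 have 4590, less than the 6494.5 of the 23 that moved from cluster 8 to 7.

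The share of cluster 7 among all sorted cells was 31.03% at E10, with a 95% interval from 21.5 to 41.9. At E11 the share was 35.4%, from 27.2 to 44.2. It was 22.6% in E11.5 G2VInt, from 17.8 to 27.9, and 15.04% in E11.5 G2VLo, from 11.9 to 18.6. Among HC1 cells alone its share was 42.9%, 59.7%, 61.8% and 43.6%. By the clustering of all cells, the E10 share was 12.6%.

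Within cluster 7, 6 of the 7 markers were lowest at E10. From E10 to E11 G2VInt, Akr1c14 was 21.4-fold, Bmx 11.4-fold, Sult1a1 9.75-fold, Ret 8.76-fold and Procr 3.66-fold higher. The same genes were higher at E11 than at E10 in cluster 8 as well, where Bmx was 7.76-fold, Sult1a1 3.83-fold and Procr 8.09-fold higher. Akr1c14 and Ret had only 2 and 3 reads in cluster 8 at E10. The make-up of cluster 7 also differed, since 16 of its 27 E10 cells moved to cluster 8 in the second clustering, against 6 of 46 at E11. Those 16 cells had reads of a median of 1.5 markers, against 3 in the 11 that stayed. The part of this make-up in the rise was not tested. Plek, a platelet and leukocyte substrate of protein kinase C, ran the other way, at 103.2 CPM at E10 against 11.7, 9.84 and 22.3. In low against intermediate Venus at E11.5, all 26 genes of the G2 and mitosis list were lower in cluster 7 and 12 of them at least 2-fold, against 65.5% and 3.86% of all measured genes. The same comparison within cluster 8 gave 26 lower genes and 13 at least 2-fold, against 64.5% and 2.89%. Ube2c, which marks mitotic proteins for breakdown, was at 95.7 against 350.2 CPM in cluster 7 and at 236.7 against 518.3 in cluster 8. Library depth and the mitochondrial share moved with this gate, at 418321 against 1643760 median reads and 5.57% against 2.50%, and their part was not tested.

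CD27+ cells of E11.5 gave a further pair of sets outside the rule, 16 cells in cluster 7 and 69 in cluster 8 of the clustering of all cells. Of the genes at least 2-fold higher in cluster 7 above, 93.6% were higher here too and 73.8% at least 2-fold, against 47.6% and 5.77% of all measured genes. Of the 51 lower genes, 47 were lower and 34 at least 2-fold, against 52.4% and 6.79% of all measured genes. The medians were 1.43 and -1.45 on the log2 scale, against -0.02 over all 9916 genes. Fbn1 was at 30.9 against 1.43 CPM and Rac2 at 161.7 against 584. Bmx was an exception, at 1.81 against 6.24 CPM, and Hey1 was at 17.1 against 18.9. The 2 sets were formed from the same genes, so this is a description of the same division in another sort and no test of it.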

How the data were processed

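Single cells were measured by RNA sequencing (Nextera XT libraries on an Illumina HiSeq, per the labels' protocols). The values are raw counts of reads per gene and cell, deposited by the authors in 1 table and made with HTSeq 0.6.0 on GRCm38, per the submitters' processing notes. The aligner, the annotation release, the use of strand and any filter on cells are not given in the sources used here. Without strand, reads of overlapping or antisense genes cannot be told apart. The labels mention no molecular identifiers, so reads are not independent molecules.

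The class and cluster of each cell are the authors', from the labels, with 207 HC1 cells in cluster 7 and 198 in cluster 8 among 1087. Counts were summed over the cells of a cluster within a day and gate and divided by their total to give CPM, with exact Poisson intervals. Where 1 set had no read, 3 reads were put in its place. Shares of cells used cells thinned to 100000 reads, with Clopper-Pearson intervals. Intervals and floors cover counting error only. Each group is 1 sample, so no test was run. A gene was called where it differed at least 2-fold in the same direction in all 4 groups, which gave 141 higher and 51 lower genes of 9916 measured.

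The members and the 31 gene lists were chosen with earlier results of these data known. Named genes are the markers, the genes of the sort, the 15 highest and 10 lowest by the weakest of 4 ratios (read in at least 20% of the cells of the higher cluster), and up to 4 of each list by mean log2 ratio. Others, such as Runx1, Spi1, Sox17, Ptprc, Mllt3, Mecom, Hlf, Actc1, Fhl2, Bmper, F10 and Art4, were named after their values were seen. Some genes that this rule names are not reported here. Gene names and positions are from GENCODE on GRCm38, and promoters from RefSeq on GRCm38.p6. Alternatives were other scalings (edgeR 4.0.16 in R 4.3.3 for TMM), filters, thinning, cluster labels, the lower or upper library numbers within each group, and leaving out each group. The counting of calls was tested on simulated data. Python 3.11.15, numpy 2.4.6, pandas 2.3.3 and scipy 1.17.1 were used. No 2 cells had identical counts.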

Additional observations from a re-analysis of the deposited data

How the results depend on the processing

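As a percent of the 9916 genes measured, genes at least 2-fold higher in cluster 7 in all 4 groups (1.42%) came to 2.40% with no filter on low values and 2.26% over cells that both clusterings put in the same cluster. Lower genes (0.514%) came to 1.46% and 0.857% under the same settings. Leaving out each group in turn gave 1.70% to 1.98% higher and 0.666% to 0.787% lower genes. Fewer groups make the rule easier to pass, and the lower share was 0.787% without E10 and 0.777% without E11. Other scalings, thinning, cluster labels and the lower or upper library numbers within each group gave 1.14% to 1.44% higher and 0.484% to 0.615% lower. A setting chosen after seeing the data, without the highest cell of each gene, gave 1.64% and 0.605%, and Ifi44, Cdkn1c and Gfi1b were then no longer 2-fold different in all 4 groups. The share of cluster 7 was 12.6% at E10 by the clustering of all cells, and in E11.5 G2VLo 11.4% in the lower and 18.6% in the upper library numbers. The cause was not tested. Of 1725 mean log2 ratios of the named genes over all settings, 1722 kept their sign, the exceptions being Emcn and Lss. Many of these genes were picked for large ratios, and the settings share most reads. A kept sign was thus likely from the start and tests nothing. Over the same settings the medians of 30 lists changed sign 17 times, in the macrophage, erythroid, transition factor, mesenchymal, neural and immediate-early lists. No paired analysis was possible because the replicate numbers name single cells, which pair no samples, and the results come from no test. Each ratio was taken within 1 day and gate. Depth was lowest in E11.5 G2VLo, where the counting intervals are widest for a given level.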
